A study of Xenopus tropicalis with 12 samples.

Results

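The response of wild-type tadpole intestine to T3, the active thyroid hormone, was read from the 3 libraries labelled T3WT and the 3 labelled contWT, 6 of the 12 libraries of the series. They were chosen by the column labels of the count table, which name wild type with T3 and wild type without. The animals were Xenopus tropicalis tadpoles at stages labelled 52 to 54, and exposure was 10 nM T3 for 18 h. The 6 libraries not in this comparison, contHomo and T3Homo, carry by the same labels the TRα(-/-) genotype, which lacks thyroid hormone receptor alpha, without and with T3. Both genotypes came from shared parents.

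The sample titles contradict the T3WT label. The titles and treatment fields describe these 3 libraries as TRα(-/-) intestine that received no T3, and give contHomo as wild-type intestine that did receive T3. Titles and columns name the same identity for contWT and for T3Homo. Every difference between T3WT and contWT below is thus a response to T3 by the column labels, and a difference of genotype by the titles. By the titles the response of wild type to T3 would be contHomo against contWT, so contHomo values stand beside the main ones. Each group was 1 RNA pool merged from several tadpoles, and its 3 libraries are technical replicates. All SDs, SEs and p-values here therefore cover variation among libraries made from the same RNA and none among animals. In bulk tissue, a lower number of cells of a type and less RNA per cell cannot be told apart.

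T3 acts through nuclear receptors that bind DNA with or without the hormone. In frogs the unliganded receptor holds target genes down and the liganded receptor activates them. During metamorphosis the larval intestinal epithelium dies and is replaced by an adult epithelium that forms from stem cells, and T3 given to young tadpoles starts this program early. TRα is the main receptor form before metamorphosis begins.

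The count table lists genes by identifier only, and 0 of the nuclear ones could be paired with a gene symbol. Checks of the labels against the receptor gene itself, the check of the tissue against intestinal markers, 10 of 11 gene lists and all 12 lists of markers for other cell types could therefore not be applied. Nuclear genes are described here by identifier or position, structure and level, and no function is given to them. Library totals were 35951142 to 38423895 counts in contWT and 34322099 to 38421597 in T3WT. The T3WT libraries stood apart from the other 9 in their TMM scaling factor, which was 1.21 in all 3 against 0.912 to 0.964. Levels are given as CPM, the count of a gene relative to the scaled library size.

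T3WT and contWT differed at many genes, and rises were most frequent among genes of low level. A gene was called at an adjusted p below 0.05 with edgeR's quasi-likelihood test and a change of at least 2-fold. Of 13172 genes tested, 1691 (12.8%) were called higher and 677 (5.14%) lower, 18.0% in either direction. For 569 of the tested genes T3WT was the only group with all 3 libraries at the cut-off of the low-count filter, which favours rises. Some of them could also have passed by single libraries of several other groups. Genes with contWT as the only such group, which would favour falls, were not counted. When the 569 were left out, 1304 genes outside the 100 most abundant were called higher, 10.4% of that class. The medians and size counts in this paragraph include them. Genes that rose had a median level of 0.698 CPM in contWT and 2.5 CPM in T3WT. Genes that fell had a median of 13.4 CPM in contWT and 4.90 CPM in T3WT, and genes not called stood at 10.3 and 10.1 CPM. Changes of at least 8-fold were called for 179 higher and 42 lower genes. The same fit gave 14 higher and 29 lower genes at 8-fold or more in T3Homo vs contHomo.

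**Figure D1:**
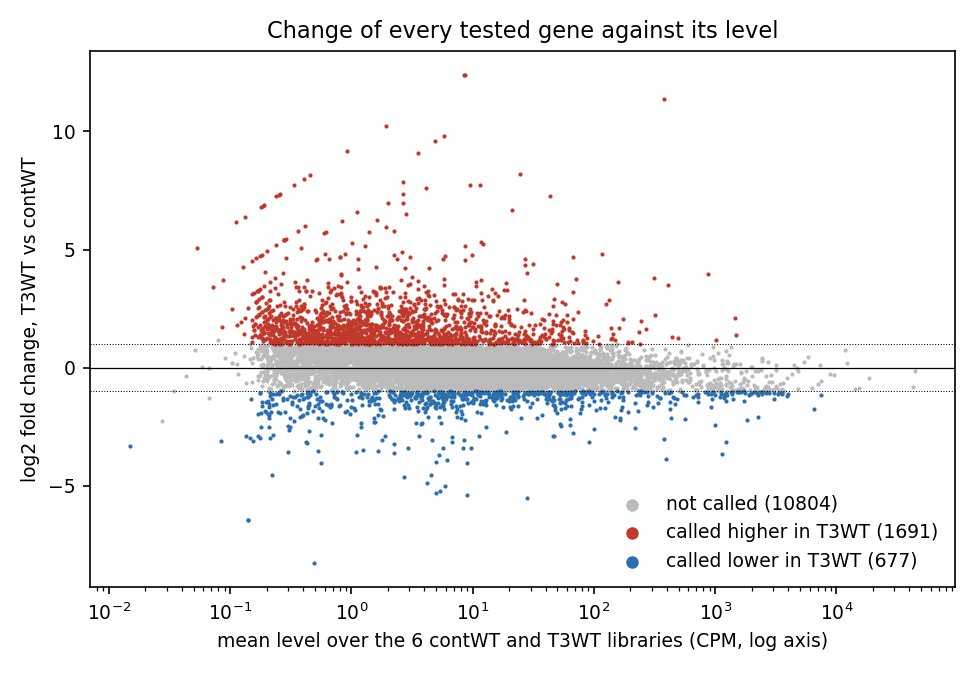
Each point is 1 of 13172 genes, with its mean level over the 6 contWT and T3WT libraries (CPM, log axis) against the log2 fold change of T3WT vs contWT; dotted lines mark 2-fold. The 1691 rises lie mostly at low levels, and at the right end of the axis, at this scaling, the called genes are falls.

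When genes were divided into 5 equal classes by their mean level over all 12 libraries, the share called higher dropped from class to class. It was 33.8% in class 1 (0.0658 to 1.54 CPM), 15.5% in class 2, 7.40% in class 3, 4.06% in class 4 and 3.42% in class 5 (34.6 to 48500 CPM). The share called lower was 5.66% in class 1, 4.33% in class 2, 3.83% in class 3, 3.45% in class 4 and 8.43% in class 5. At total-count scaling 50.9% of class 1 and 6.87% of class 5 were called higher, and 2.31% of class 5 lower. The filter on low counts favours rises in class 1. For 563 of its 2634 genes, T3WT was the only group with all 3 libraries at the cut-off. Among the 2071 other genes of class 1, 24.6% were called higher. The median log2 fold change was 0.62 in class 1 and -0.21 in class 5. In T3Homo vs contHomo, where 6.60% of all genes were called (2.77% higher and 3.83% lower), class 1 held 5.73% higher and 9.68% lower genes, and the medians of classes 1 and 5 were -0.04 and -0.03. The change in T3WT vs contWT differed by at least 2-fold from that in T3Homo vs contHomo for 15.6% of all genes.

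The 100 most abundant genes, at 1800 CPM or more over all libraries, held 27 genes called lower in T3WT and 0 called higher. Their median log2 fold change was -0.81, with 80% of them between -1.11 and 0.12, and a full range of -2.10 to 0.77. They took 49.3 ± 0.185% (SD, n = 3) of all counts in contWT and 44.3 ± 0.117% in T3WT. The groups did not overlap, at 49.2 to 49.5% and 44.1 to 44.4%. In contHomo and T3Homo the share was 48.7 ± 0.0493% and 48.6 ± 0.0252%. The scaling sets how many of these falls pass 2-fold. At total-count scaling, which moves the median change over all genes from 0.05 to 0.45 (log2), 3 of the 100 were called lower, and 91.7% of all calls were rises in place of 71.4%.

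**Figure D2:**
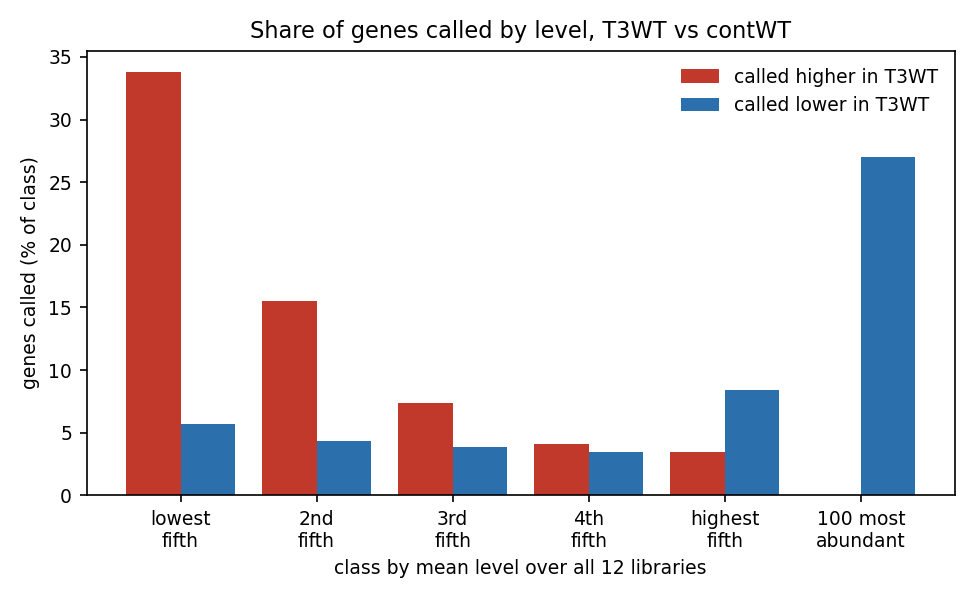
Bars give the percentage of genes called higher or lower in T3WT vs contWT, in 5 classes of equal size by mean level over the 12 libraries and among the 100 most abundant genes. Rises drop from 33.8% to 3.42% across the classes, and falls reach 27.0% among the 100 most abundant, of which 3 are called at total-count scaling.

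The 677 genes that fell took 18.9 ± 0.0473% of counts in contWT and 10.4 ± 0.0666% in T3WT. The 1691 genes that rose took 0.867 ± 0.00839% in contWT and 3.87 ± 0.0195% in T3WT. These sets were chosen by their change, so the sums describe the calls and are not tested. Shares of counts add up to the whole library, so the remainder is taken up by genes without a call. The sets themselves depend on the scaling, which at total counts gives 271 falls and 2995 rises. The 50 largest contributors made up 73.7% of the summed CPM lost by falling genes and 60.9% of that gained by rising genes.

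The largest rise in CPM was that of ENSXETG00000005933, a gene of 2 exons on the minus strand of scaffold GL172851.1 from 995024 to 999715. It stood at 547, 540 and 558 CPM in the 3 contWT libraries and at 2417, 2366 and 2381 CPM in T3WT. The ranges lie far apart, a log2 fold change of 2.12 ± 0.02 (SE, adjusted p from edgeR = 2.86e-103). The contHomo libraries lay between them, at 1368, 1319 and 1345 CPM, and T3Homo reached 2365, 2390 and 2429 CPM, a range that overlaps that of T3WT. Between T3Homo and contHomo the log2 fold change was 0.83, under the 2-fold threshold.

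ENSXETG00000000954, with 13 exons on the minus strand of GL173081.1 from 871398 to 877752, had the next largest rise. Its level was 104, 104 and 103 CPM in contWT and 1620, 1659 and 1619 CPM in T3WT, a log2 fold change of 3.98 ± 0.02 (SE, adjusted p from edgeR = 1.20e-120). Libraries within a group were nearly equal and the groups were 15.8-fold apart. The groups labelled Homo were also far apart. The gene stood at 685, 679 and 668 CPM in contHomo, 6.55-fold above contWT, and at 2749, 2705 and 2680 CPM in T3Homo, 4-fold above contHomo. T3Homo thus held its highest level, above T3WT in all 3 libraries.

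The largest fall in CPM was that of ENSXETG00000015619, a 12-exon gene on the plus strand of GL172693.1 from 1483684 to 1505632. It went from 9915, 10182 and 10198 CPM in contWT to 2978, 2998 and 3005 CPM in T3WT, a log2 fold change of -1.75 ± 0.01 (SE, adjusted p from edgeR = 2.56e-100). T3WT was the group that stood apart, since contHomo held 9807, 9906 and 9710 CPM and T3Homo 7761, 7689 and 7483 CPM. Between T3Homo and contHomo the log2 fold change was -0.36. At total-count scaling its log2 fold change was -1.36.

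ENSXETG00000007220, with 7 exons on the plus strand of GL172810.1 from 2026002 to 2028725, fell from 10309, 10194 and 10492 CPM to 4648, 4548 and 4666 CPM. Its log2 fold change of -1.16 ± 0.01 (SE, adjusted p from edgeR = 7.27e-84) became -0.77 at total-count scaling and was then below the 2-fold threshold. Its span overlaps that of another annotated gene, so reads of the pair may not be separated. The other groups lay between these levels, at 8489, 8123 and 8277 CPM in contHomo and 6140, 6305 and 6375 CPM in T3Homo.

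Among genes that started high, the called falls had a median log2 fold change of -1.11, close to the 2-fold threshold. A few were much deeper, down to -3.64. Of the 194 genes at 1000 CPM or more in contWT, 60 were called lower in T3WT and 0 higher, and at total-count scaling these counts were 10 and 1. Of all genes tested 5.14% were called lower and 12.8% higher. The 194 were chosen for high levels in contWT, which favours falls from it. The 60 went from a median of 2151 CPM in contWT to 920 CPM in T3WT. Of the 60, 0 have 1 exon, which is rare among all genes tested (465 of 13172). In T3Homo vs contHomo 4 of the 60 were called lower, against 3.83% of all genes, and 0 were called higher.

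The deepest of these falls, singled out after its values were seen, was that of an 11-exon gene on the minus strand of GL173417.1, from 181794 to 188911. It stood at 2117, 2104 and 2127 CPM in contWT and at 170, 168 and 172 CPM in T3WT, 12.5-fold lower. It was also low in T3Homo, at 277, 288 and 274 CPM, against 1483, 1466 and 1457 CPM in contHomo. An 8-exon gene on the plus strand of GL172652.1, from 1007518 to 1013343, followed the same order. It went from 2181, 2206 and 2169 CPM in contWT to 246, 246 and 252 CPM in T3WT, 8.81-fold lower, and from 1947, 1955 and 1974 CPM in contHomo to 598, 598 and 585 CPM in T3Homo. Both genes were low in the groups labelled with T3 and high in those labelled without. The low groups are both TRα(-/-) by the titles, and the high groups are both wild type. This pattern therefore cannot tell the labels and the titles apart. In contHomo, the wild type with T3 by the titles, the log2 fold changes of these genes from contWT were -0.53 and -0.16. At total-count scaling the falls in T3WT were -3.24 and -2.74 on the log2 scale.

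At the other end, 18 genes rose from under 1 CPM in contWT to at least 10 CPM in T3WT. The set was formed on those values, so only the other groups carry information on it that was not used to choose it. In T3Homo vs contHomo, which shares no library with the comparison that formed the set, 10 of the 18 were called higher, where 2.77% of all genes were, and 1 was called lower. In T3Homo 3 of the 18 reached 10 CPM and 4 stayed under 1 CPM. In contHomo 2 of the 18 reached 10 CPM. All 18 were called higher under every alternative setting tried. The set was formed on a rise from under 1 to at least 10 CPM, so a 2-fold call on the same counts was nearly assured.

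**Figure D3:**
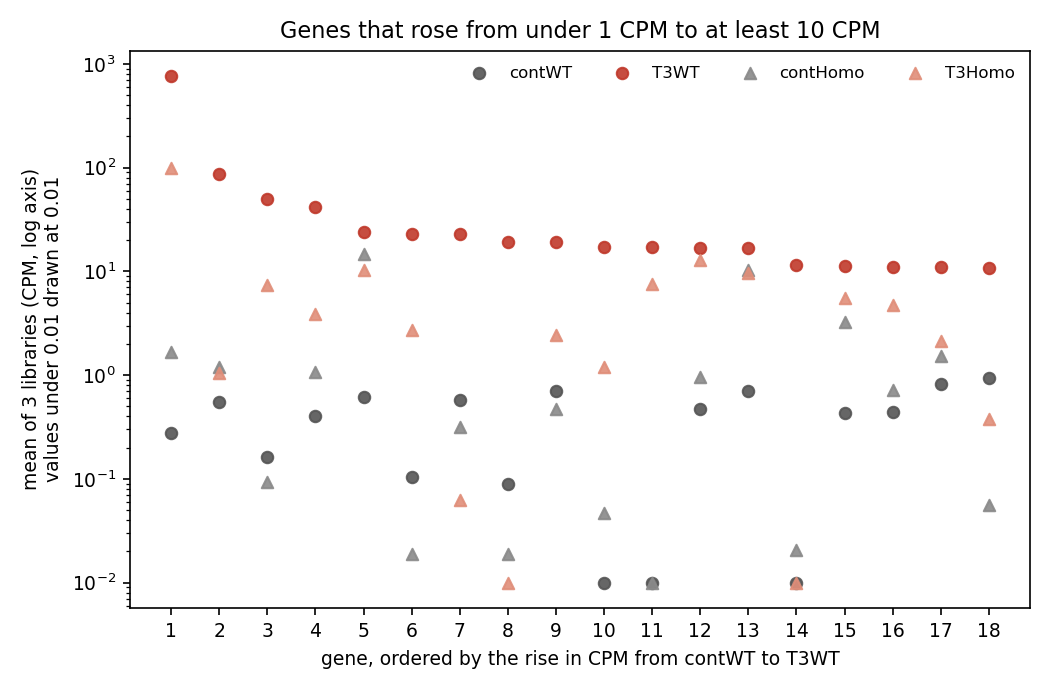
Mean CPM of 3 libraries (log axis) in each of the 4 groups for the 18 genes that rose from under 1 CPM in contWT to at least 10 CPM in T3WT, in order of the rise, with the lowest values drawn together at the lower end of the axis. T3WT is the highest group for all 18, and T3Homo lies above contHomo for the 10 genes called higher there and for 2 of the others.

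The largest gain in CPM among the 18 was that of an 8-exon gene on the plus strand of GL172931.1, from 1403566 to 1416939. It was singled out after its values were seen. Genes on GL172875.1 and GL173114.1, with 0 counts in contWT, had log2 fold changes of 12.38 and 12.37 by the fit. At 0 counts these values have no measured base, so they do not show larger changes than that of the GL172931.1 gene. Counts of the GL172931.1 gene were 16, 7 and 6 in the contWT libraries and 31432, 35709 and 34601 in T3WT. In CPM these are 0.450, 0.200 and 0.183 against 754, 767 and 764. With 29 counts in contWT, an exact 95% Poisson interval of 0.188 to 0.403 CPM places the ratio between 1890 and 4050, and covers counting error only. The log2 fold change was 11.39 (adjusted p from edgeR = 3.25e-123) and ranged from 11.17 to 11.93 when each library was left out in turn. Its SE of 0.05 by the fit is narrower than this range and that interval, and understates the error at 29 counts. The gene was at 1.62, 1.90 and 1.48 CPM in contHomo and at 101, 99.6 and 96.6 CPM in T3Homo, 59.7-fold higher by the fit.

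Other members of this set differed in the groups labelled Homo. A 10-exon gene on GL172650.1 from 3930917 to 3939289 went from 0.675, 0.428 and 0.549 CPM in contWT to 87.9, 86.3 and 83.4 CPM in T3WT. It stayed near 1 CPM elsewhere, with means of 1.19 CPM in contHomo and 1.05 CPM in T3Homo (adjusted p from edgeR = 0.446). A 14-exon gene on GL172662.1 from 1899259 to 2115354 went from 0.534, 0.428 and 0.457 CPM to 17, 16.4 and 17 CPM. It also rose in T3Homo, to 12.8, 12.7 and 13.1 CPM, from 0.988, 0.983 and 0.898 CPM in contHomo, with log2 fold changes of 5.14 in T3WT and 3.75 in T3Homo. A single-exon gene on GL173975.1 from 86467 to 88104 went from 0.450, 0.799 and 0.854 CPM to 17, 15.6 and 17.3 CPM. It was about as high in contHomo as in T3Homo, with means of 10.2 and 9.64 CPM (adjusted p from edgeR = 0.240). These members were picked after their values were seen to show the forms the set takes.

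**Figure D4:**
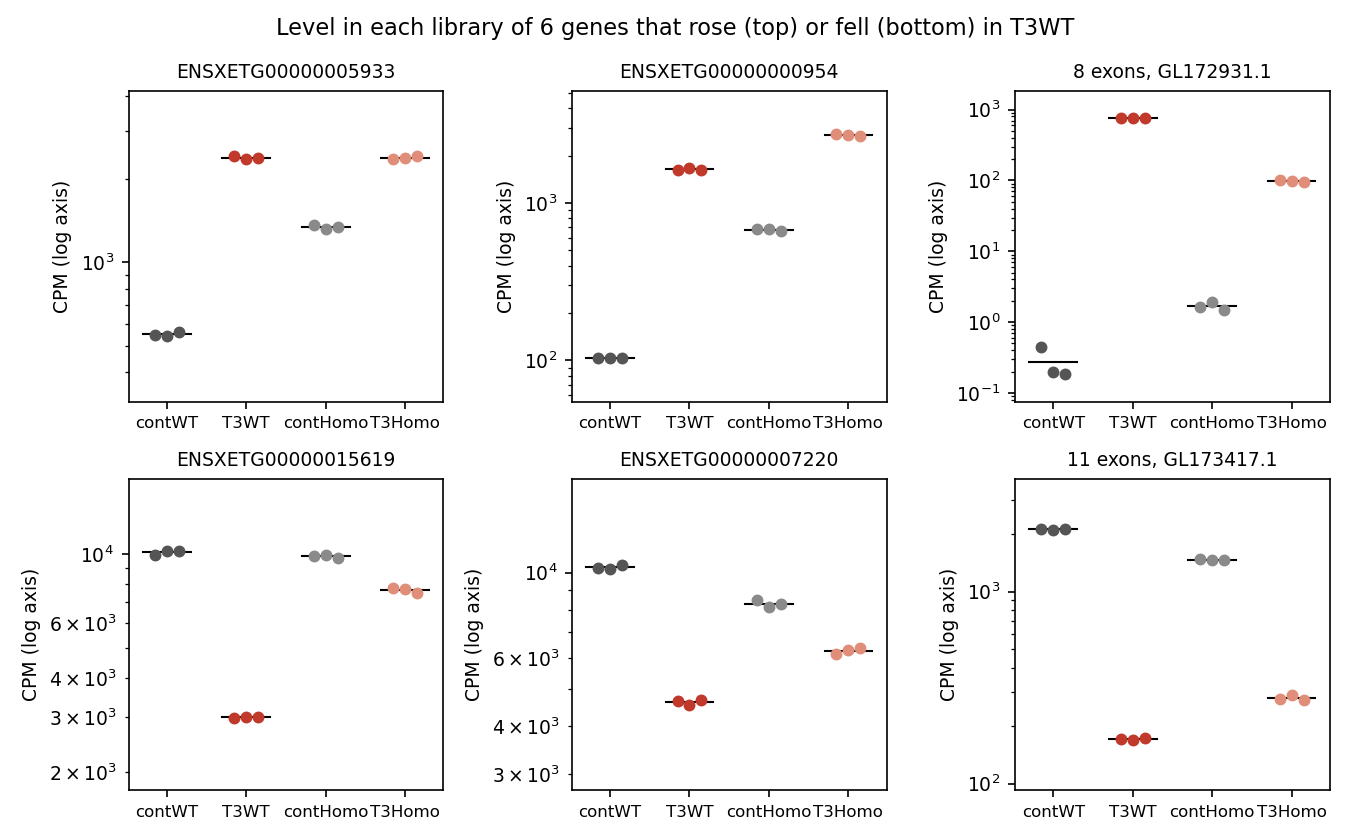
CPM in each library (log axis, scaled separately for each gene) of 3 genes that rose and 3 that fell in T3WT; points are the 3 libraries of a group and bars their mean. Within a group the points nearly coincide except at the few counts of the GL172931.1 gene in contWT. In all 6 panels T3Homo is shifted from contHomo in the same direction as T3WT is from contWT. For ENSXETG00000005933, ENSXETG00000015619 and ENSXETG00000007220 that shift in T3Homo was under 2-fold and not called. The genes were picked for their change in T3WT.

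Gene structure, which played no part in forming the comparison, differed more between falls and other genes than between rises and other genes. Genes that fell had a median of 8 exons and 1510 exonic bases, with a genomic span of 10400 bases. The medians were 9 exons, 1800 bases and a span of 16800 bases in genes that rose, and 10 exons, 1800 bases and 14700 bases in genes not called. Of the 465 genes with 1 exon, 9.89% were called lower, and of the 2068 with over 20 exons 3.38% were, on either side of the 5.14% of all genes. Shares called higher were 14.4% with 1 exon, 15.4% with 2 to 3, 12.5% with 4 to 6 and 12.2% with 7 to 10. They were 11.5% with 11 to 20 exons and 14.7% with over 20. Leaving out the 569 genes with only T3WT at the filter's cut-off gave 10.6%, 11.7%, 9.6%, 10.1%, 9.42% and 12.3%, in this order. The shortest of 5 classes by exonic length was the one with more falls than rises, 11.2% against 9.26%. At total-count scaling the shares called lower were 6.02% with 1 exon and 1.11% with over 20. The order rests on the fold threshold: at adjusted p alone 27.7% of genes with 1 exon and 32.8% of those with over 20 fell.

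The calls of neighbouring genes are given as shares, without a test. The 569 genes with only T3WT at the cut-off of the low-count filter are included, here and in the runs below. Of the tested genes called higher, 15.6% had a next tested gene on the scaffold that was also called higher, against 12.1% for genes not called higher. For falls the shares were 10.0% and 4.88%. Pairs whose spans do not overlap gave 15.5% and 12.2% for rises, and 9.76% and 4.84% for falls. When the gap was over 50000 bases, the shares were 14.0% and 16.1% for rises and 4.91% and 5.52% for falls, the reverse order. For rises the shares were 17.2% and 12.9% in pairs on the same strand, 12.5% and 11.3% in divergent pairs and 15.1% and 11.6% in convergent pairs. For falls they were 10.8% and 4.74%, 11% and 4.78%, and 7.69% and 5.24%. Of 11450 pairs, 221 were both called higher, 60 both lower and 115 in opposite directions.

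There were 25 runs of at least 3 tested neighbours that rose together, with 79 genes in all, and 8 runs that fell together, with 27 genes. At total-count scaling these numbers were 109 and 2, and 12 and 7 when genes under a mean of 1 CPM were left out. An exon length of at least 50 bases was found in 3 or more genes of 7 of the 33 runs, and in all 3 genes of 5.03% of the 10347 windows of 3 tested neighbours. These measures are unlike, since 5 of the runs had 4 genes and 1 had 5, which gives more ways to share a length. Genes with a shared exon length may be copies that share reads, so summed levels are given. In T3Homo vs contHomo, where 2.77% of all genes were called higher and 3.83% lower, 16 of the 25 rising runs had no member called higher and 1 had all its members called higher. Of the 8 falling runs, 3 had no member called lower and 0 had all. Shares per gene and counts of runs are unlike measures: at such shares most runs of 3 genes would have no called member.

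**Figure D5:**
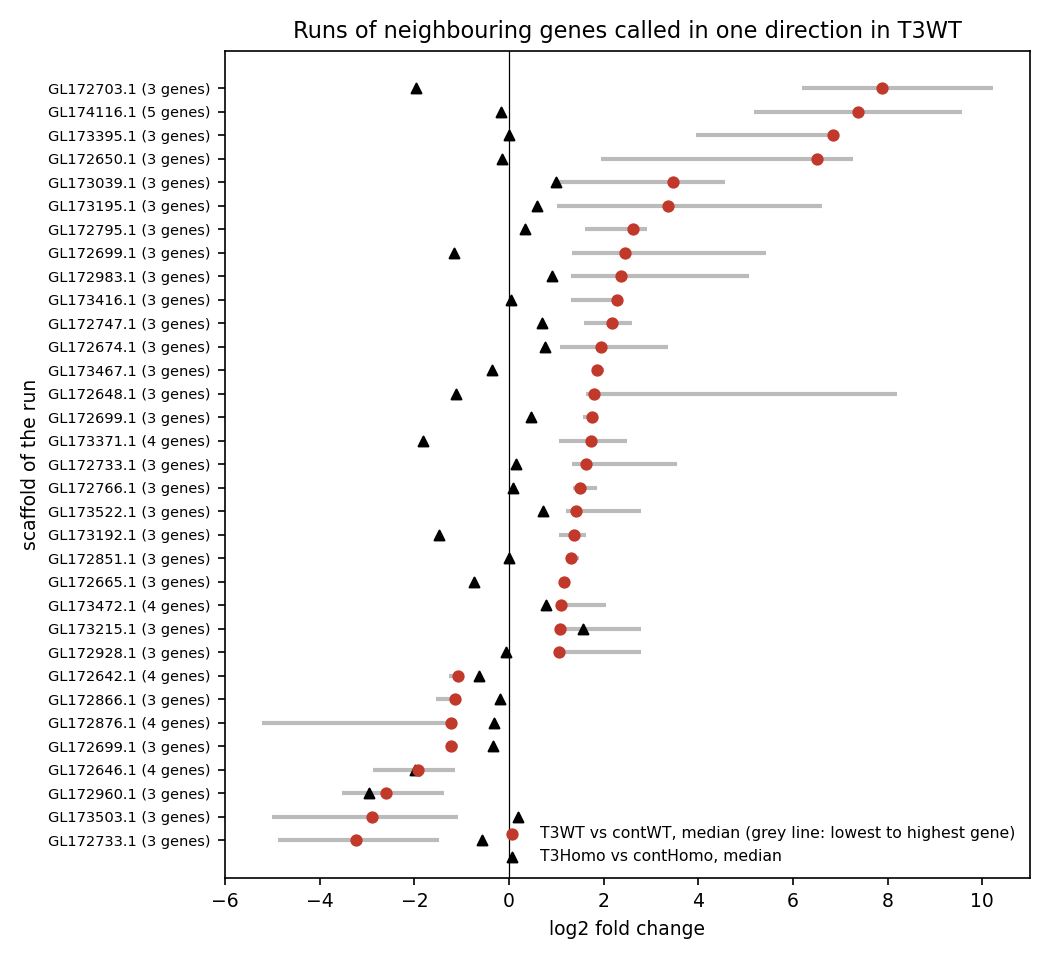
Each line is 1 of 33 runs of neighbouring genes called in one direction in T3WT vs contWT, named by its scaffold; red points are the median log2 fold change of the run, grey lines its lowest to highest gene, and black triangles the median in T3Homo vs contHomo. Red points span -3.23 to 7.88, and most triangles lie nearer to 0 than the red point of their run. The runs were formed on the change in T3WT vs contWT, which favours this order.

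A run of 3 genes on the plus strand of GL172795.1, from 1366063 to 1409286, summed to 24.3, 23.4 and 24.9 CPM in contWT and to 163, 162 and 164 CPM in T3WT. Its 3 members had log2 fold changes of 1.6 to 2.92. The sum was 43.2 ± 1.44 CPM in contHomo and 74.0 ± 1.0 CPM in T3Homo (SD, n = 3), and 1 of the 3 was called higher there.

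A run of 3 genes on the minus strand of GL173192.1, from 602540 to 703636, had 29 exon lengths found in more than 1 member. It summed to 277, 281 and 271 CPM in contWT and to 727, 721 and 709 CPM in T3WT. The direction was opposite in T3Homo, at 117, 118 and 119 CPM against 344, 340 and 349 CPM in contHomo.

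A run of 3 genes on the minus strand of GL172703.1, from 1789028 to 1840634, was counted almost only in T3WT, at 11, 10.7 and 10.8 CPM from 1445 counts. There were 4 counts in contWT, 2 in contHomo and 0 in T3Homo, where 3 counts over the group would be 0.0243 CPM. With so few counts elsewhere, these genes could pass the filter on low counts only through T3WT. Their higher level in T3WT was thus fixed by the filter. All 3 genes share an exon length.

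Among falling runs, 3 genes on GL172960.1 from 200674 to 266888 summed to 207, 207 and 204 CPM in contWT and to 42.3, 40.2 and 40.2 CPM in T3WT. They were lower still in T3Homo, at 26.6, 26.3 and 26.3 CPM, against 67.3, 68.7 and 68.3 CPM in contHomo. A run of 3 genes on GL173503.1 from 197718 to 295158 was low in T3WT alone. It summed to 21.3, 20.7 and 19.7 CPM in contWT, 3.77, 3.27 and 3.55 CPM in T3WT, 19.2 ± 0.625 CPM in contHomo and 23.2 ± 0.824 CPM in T3Homo (SD, n = 3).

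The only genes with names were 13 on the mitochondrial genome, which code for subunits of the respiratory chain and of ATP synthase. None of the 13 reached the 2-fold threshold. At adjusted p alone, which 78.5% of all genes passed in this comparison, 10 rose, 1 fell and 2 had no call. The median change was 0.30 (log2), against 0.05 over all genes, and at total-count scaling all 13 rose. COX1, a catalytic subunit of cytochrome c oxidase, stood at 6955, 6901 and 7136 CPM in contWT and at 7479, 7741 and 7607 CPM in T3WT, a log2 fold change of 0.12 ± 0.01 (SE, adjusted p from edgeR = 1.61e-13). COX3, of the same complex, stood at 4918, 4826 and 5067 CPM and at 5690, 5984 and 5864 CPM. ND6, a complex I subunit whose annotated span overlaps that of another gene, had 4.05 ± 0.173 CPM in contWT and 4.57 ± 0.222 CPM in T3WT (SD, n = 3, adjusted p from edgeR = 0.0888). ND2, also of complex I, was lower by a log2 fold change of -0.09, which was 0.31 at total-count scaling. In contHomo vs contWT, the response of wild type to T3 by the titles, log2 fold changes ran from -0.28 (ND2) to 0.14 (COX3). Only COX2 (0.03) and COX3 were positive there. In T3Homo vs contHomo all 13 were negative, from -0.03 (ATP8) to -0.40 (ND6).

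By the titles the response of wild type to T3 would be the contHomo libraries against contWT, where 787 genes (5.97%) were called, 409 higher and 378 lower. That comparison shares the contWT libraries with T3WT vs contWT. Of the genes described above, ENSXETG00000005933, ENSXETG00000000954 and the GL172931.1 gene were called higher in contHomo, with log2 fold changes of 1.29, 2.71 and 2.55. The genes described on GL172650.1, GL172662.1 and GL173975.1 were also called higher there. Of the 18 genes that rose from under 1 CPM, 8 were called higher in contHomo and 2 lower. That set was chosen for low levels in contWT, which favours rises from it. ENSXETG00000015619 and ENSXETG00000007220 had -0.04 and -0.32 and were not called.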

How the data were processed

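RNA from tadpole intestine was sequenced and reads were counted per gene. The deposited table holds raw counts, which are whole numbers and were not normalized by the authors. The submitters' processing notes name STAR 2.5.3a and featureCounts 1.4.6-p3. Genome build, annotation release, strand setting and the handling of reads that map to several places: not given in the sources used here. Reads from overlapping genes may thus be mixed. Positions come from the deposited table and refer to its own scaffolds.

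One model was fitted to all 12 libraries in 4 groups. Of 19921 genes, 13172 passed filterByExpr by group (about 0.26 CPM in 3 libraries). They were scaled by TMM and tested by the quasi-likelihood method of edgeR 4.0.16 in R 4.3.3, and p-values were adjusted over all tested genes by the Benjamini-Hochberg method. A 2-fold threshold was added to the adjusted p of 0.05, since technical libraries vary little (common dispersion 0.000172). Each SE is the size of the log2 fold change divided by the square root of its F statistic. For the GL172931.1 gene, with few counts in contWT, this value is too small. In counts simulated for T3WT vs contWT, 100% of the genes given 3-fold, 4-fold or 8-fold changes were called (50 genes per size). Of those given 1.5-fold changes 0% were called, and 0 false calls were made among 12615 genes tested. Changes were given only to genes above a cut-off on low counts, with as many rises as falls. The simulation therefore does not cover the lowest levels or the dependence of calls on scaling.

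Libraries within a group differed by more than counting noise (chi-square per degree of freedom 1.26 to 1.88, largest p 1.09e-78), so each was counted separately. Genes are named by rule: among called nuclear genes whose groups do not overlap, the 2 with the greatest gain and the 2 with the greatest loss of CPM, and all mitochondrial protein genes, which were matched to assembly UCB_Xtro_10.0 by start and end. Members and lists were chosen with earlier results of these data known. Overlapping exons were merged before exons were counted. Intervals cover counting error only. DESeq2 1.42.0 was used as an alternative.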

Additional observations from a re-analysis of the deposited data

Results flagged for a closer look

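The change in T3WT vs contWT differed from that in T3Homo vs contHomo, by edgeR's test of the difference, for 2059 genes. The genes described next were chosen for their change in T3WT vs contWT, which is part of this difference, and because the difference was called. The choice favours its direction, and the values are descriptions. Among them the log2 difference was 1.29 for ENSXETG00000005933, 1.98 for ENSXETG00000000954 and 5.49 for the 8-exon gene on GL172931.1. It was -1.39 for ENSXETG00000015619, -1.25 for the 11-exon gene on GL173417.1 and -1.42 for the 8-exon gene on GL172652.1. For ENSXETG00000007220, also described above, it was -0.76 and not called. By the titles these differences compare the effect of genotype without T3 with that under T3. With 3 libraries a group, single libraries were not tested for standing apart from their group.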

How the results depend on the processing

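With 15 alternatives, 9 of other settings and 6 without 1 library, the named nuclear genes kept their direction. Higher and lower calls (1691 and 677) became 2995 and 271 at total-count scaling, 1034 and 436 with glmTreat against 2-fold, and 5468 and 4872 without a fold threshold. With genes under a mean of 1 CPM left out there were 1060 higher calls. Changes of at least 4-fold (534 higher, 107 lower) became 805 and 70 at total-count scaling and 305 and 66 with genes under 1 CPM left out, and without a filter 164 were lower. Fewer genes were tested under the stricter filter and more without one. The 25 rising and 8 falling runs became 109 and 2 at total-count scaling, 9 and 4 with glmTreat, and 471 and 424 without a fold threshold, and 12 runs rose with genes under 1 CPM left out. ND2 and ND3 changed sign at total-count scaling, to 0.31 and 0.37, and ND3 to 0.02 with genes under 1 CPM left out. With 1 library left out, higher calls were 1730 to 1794, lower calls 679 to 711, rising runs 27 to 34 and falling runs 7 to 9. The filter was rerun on the remaining libraries, so the genes tested were not those of the main fit. DESeq2 called 1598 higher and 727 lower. The numbers of libraries of a group do not pair them with those of another (correlations of same-numbered deviations 0.010 to 0.051), and a replicate block gave 1693 and 681 calls. Low counts limit the lowest levels: 3 counts over a group were 0.0225 to 0.0290 CPM.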
